A study of Mus musculus with 6 samples.

Results

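The epidermal growth factor (EGF) receptor, 7 of its ligands and Errfi1, an inhibitor of the receptor's kinase, were followed on 6 one-colour arrays of mouse ear skin. These 9 genes were chosen by name, from the non-control probes whose gene name in the scanner files was Areg, Ereg, Hbegf, Tgfa, Btc, Epgn, Egf, Egfr or Errfi1. The rule uses no measured value, but the set was proposed with earlier results of these data known. They were read by 11 probes, each of 60 bases, and stood among 23676 genes tested. Egfr had 3 probes and every other member 1, and each of the 11 probes exceeded background clearly in all 6 mice.

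The arrays held total RNA of whole ear skin, 1 array per mouse, from 3 mice labelled wild type (WT) and NC16A sufficient and 3 labelled knockout (KO) and NC16A deficient. NC16A is a segment of BP180, the hemidesmosomal collagen XVII that anchors basal keratinocytes, encoded by Col17a1. The groups were matched for age and sex per the design text. Strain, the ages themselves, the extent of the deletion and any treatment are not stated. Mice are called here by their label numbers, WT 1, WT 2 and WT 3, and KO 1, KO 2 and KO 7. WT 1, WT 2, WT 3 and KO 1 shared slide 1, and KO 2 and KO 7 were on slide 2, so the only comparison within a slide sets KO 1 against the 3 WT mice.

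Levels are log2 of the processed signal minus the 75th percentile of that array, so 0 is the level below which 75% of probes lay. Differences are KO minus WT on this log2 scale, with the standard error (SE) of a limma fit across all genes and an adjusted p after Benjamini-Hochberg adjustment over all 23676 genes. The threshold for a call was an adjusted p of 0.05. A level read by 1 probe cannot be set against that of another probe. Ratios of probes and sums over probes are given only to compare the same ratio or sum between mice, and the brightest probe weighs most in a sum. The 75th percentile was 5288 to 6656 intensity units for WT and lower, 3813 to 4417, for KO, and 72.6% to 78.2% of spots were well above background. The single Col17a1 probe read 4.41, 4.39 and 4.47 in WT 1, 2 and 3, against 4.48, 4.31 and 4.10 in KO 1, 2 and 7, a difference of -0.13 ± 0.14 (SE, adjusted p = 0.58). Whether that probe lies inside the deleted segment is not given, so it does not check the labels. All 9 basal and all 8 suprabasal keratinocyte markers were measured on these arrays.

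EGF-family ligands are made as membrane-bound precursors, and metalloproteases such as ADAM17 cut them loose. A released ligand binds the EGF receptor on the same or a neighbouring cell, the receptor pairs with itself or with another ErbB receptor, and Ras, ERK, phosphoinositide 3-kinase and STAT3 are switched on. In epidermis this pathway is known for keratinocyte growth and for migration at wound edges, and in the hair follicle for the timing of the hair cycle. Errfi1 (also called Mig6) is induced by the active receptor and shuts its kinase off.

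Amphiregulin (Areg), epigen (Epgn) and betacellulin (Btc) showed the 3 widest gaps between the groups, so the sequences behind them are shown first. The Areg probe lies at chr5:91570090-91570149 (mm9, plus strand) and is the read-out behind every Areg value. The files do not say in which exon it lies, and 1 of its 3 forward reading frames holds no stop codon.

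Areg probe: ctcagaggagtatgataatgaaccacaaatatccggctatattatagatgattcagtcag

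The 250 bases before the transcription start of the same genes are given from RefSeq (GRCm38.p6), 5′ to 3′ along each gene. Capitals mark exact matches, on either strand, to the 3 motifs searched, none of which is part of another. These were the core of the TATA box, with the letters TATAAA, the cyclic AMP response element (CRE), with the letters TGACGTCA, and the AP-1 site, with the letters TGANTCA. The windows are chr5:91139349-91139598 on the plus strand for Areg, chr5:91027267-91027516 on the plus strand for Epgn and chr5:91402995-91403244 on the minus strand for Btc.

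Areg: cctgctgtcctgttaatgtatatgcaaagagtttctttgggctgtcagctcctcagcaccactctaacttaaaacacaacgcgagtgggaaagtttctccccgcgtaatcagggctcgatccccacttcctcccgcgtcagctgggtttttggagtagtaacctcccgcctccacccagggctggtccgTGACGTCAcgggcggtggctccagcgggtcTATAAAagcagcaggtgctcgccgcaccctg

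Epgn: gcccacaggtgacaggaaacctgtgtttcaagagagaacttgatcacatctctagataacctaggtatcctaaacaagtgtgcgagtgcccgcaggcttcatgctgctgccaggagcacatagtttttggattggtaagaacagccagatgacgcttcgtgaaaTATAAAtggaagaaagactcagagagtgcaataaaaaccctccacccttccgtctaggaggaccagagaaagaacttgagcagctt

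Btc: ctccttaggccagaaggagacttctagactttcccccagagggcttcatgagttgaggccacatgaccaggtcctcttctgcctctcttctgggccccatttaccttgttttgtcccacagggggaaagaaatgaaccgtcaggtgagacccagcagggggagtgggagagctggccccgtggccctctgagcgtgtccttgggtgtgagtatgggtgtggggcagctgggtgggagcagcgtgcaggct

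The Areg window held a CRE from position -61 and a TATA match from position -31, where -1 is the base just before the transcription start. The Epgn window held a TATA match from position -86, and the Btc window held no match. Over the 32851 windows of this length in the RefSeq table, 1.55% held the CRE, 12.4% the TATA match and 6.75% the AP-1 site. Ereg has no entry in the table used. Errfi1 has 2 listed starts, and the window of one of them, chr4:150854820-150855069, also held a CRE, from position -51, and a TATA match, from position -28. The Areg window had 57.2% G and C bases and the Epgn window 46.8%, against a median of 52.4% over all windows. These matches are letters in a reference sequence, and no binding was measured here.

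Of the 9 genes, 1 rose in KO ear skin (Areg), 0 fell and 8 did not pass. Across all genes tested, 1.98% rose and 0.389% fell, 2.37% in either direction. At an adjusted p under 0.10, 4 of the 9 genes were called, Areg and Epgn with higher and Btc and Ereg with lower KO values, against 8.62% of all genes. In the same 4 genes no KO value lay within the WT range and all lay on the same side of it, which 35.4% of all genes also showed. The median difference over the 9 genes was -0.12 and their median size of difference, sign left out, was 0.75. Over all genes these medians were 0.054 and 0.29.

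**Figure D1:**
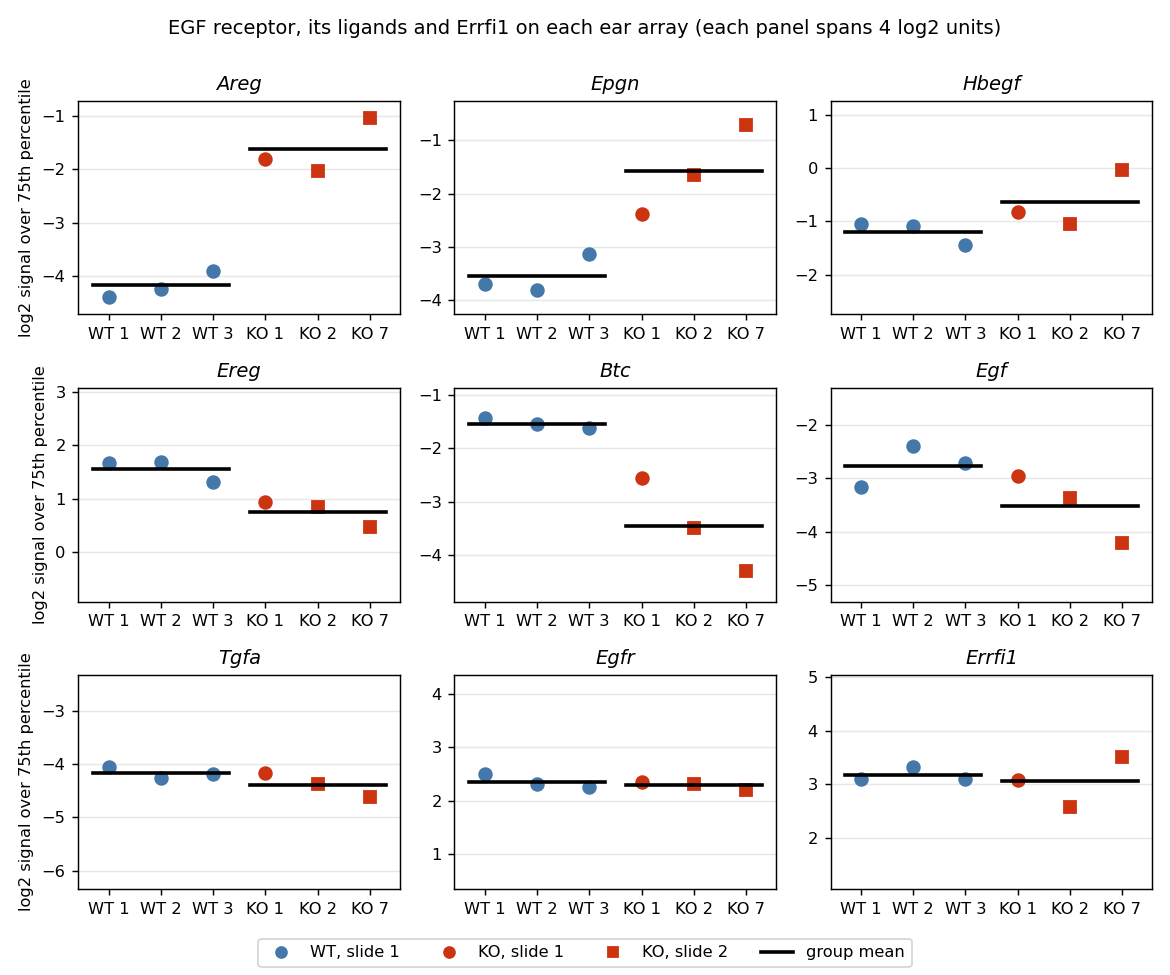
Level of each of the 9 genes on each array, as log2 of the processed signal over the array's 75th percentile, with blue for WT, red for KO, circles for slide 1, squares for slide 2 and a black line for each group mean. Each panel spans 4 log2 units, and the KO points of Areg and Epgn lie above, and those of Ereg and Btc below, every WT point of the same gene.

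Areg, a ligand that keratinocytes make and respond to and that some immune cells also make, was the member that passed. Its level was -4.39, -4.23 and -3.89 in WT 1, 2 and 3, against -1.81, -2.04 and -1.03 in KO 1, 2 and 7. The lowest KO value, in KO 2, lay above the highest WT value, in WT 3, and KO 7 was the highest of all. The group means were -4.17 ± 0.25 in WT and -1.63 ± 0.53 in KO (SD, n = 3 each). The difference was 2.55 ± 0.28 (SE, adjusted p = 0.0088 in limma), a 5.84-fold higher level with a 95% interval of 3.64 to 9.36. Before any scaling the Areg probe read 280 to 371 intensity units in WT and 1014 to 1859 in KO. Within slide 1, KO 1 stood 2.36 above the WT mean. With slide as a fixed block the adjusted p was 0.13, and with that block 0 of the 9 genes and 0.71% of all genes passed.

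Epigen (Epgn), a low-affinity ligand of the same receptor, read -3.68, -3.80 and -3.14 in the WT mice, against -2.38, -1.65 and -0.72 in KO 1, 2 and 7. The groups did not overlap, and the KO mice spread more widely than the WT mice, with SDs of 0.83 and 0.35. The difference of 1.96 ± 0.42 (SE), 3.89-fold with a 95% interval of 1.94 to 7.79, did not pass (adjusted p = 0.067). Within slide 1, KO 1 stood 1.16 above the WT mean, and with slide as a fixed block the adjusted p was 0.59. Without KO 1 the difference was 2.36 and the adjusted p 0.031 in limma, but WT and KO then lie on separate slides and cannot be told apart from them. With any other mouse left out the adjusted p was 0.075 to 0.21.

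Heparin-binding EGF-like growth factor (Hbegf), known for keratinocyte migration in healing wounds, read -1.05, -1.09 and -1.44 in the WT mice, against -0.82, -1.05 and -0.038 in KO 1, 2 and 7. KO 7 stood above all other mice, and KO 2 lay among the WT values. The difference was 0.56 ± 0.28 (SE, 95% interval -0.11 to 1.22, adjusted p = 0.24).

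Betacellulin (Btc), which binds ErbB4 as well as the EGF receptor, had the lowest KO values relative to WT. It read -1.44, -1.55 and -1.62 in WT 1, 2 and 3, a narrow range, against -2.55, -3.50 and -4.30 in KO 1, 2 and 7. The groups did not overlap, and the SD was 0.095 in WT and 0.87 in KO. The difference was -1.91 ± 0.41 (SE, adjusted p = 0.067), with the WT level 3.77-fold that of KO and a 95% interval of 1.91 to 7.43. Within slide 1 the KO 1 value was -1.02 relative to the WT mean, and with slide as a fixed block the adjusted p was 0.50. Without KO 1 the difference was -2.36 and the adjusted p 0.016 in limma, with group and slide again inseparable. With any other mouse left out the adjusted p was 0.073 to 0.20.

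Epiregulin (Ereg), another ligand of both receptors, read 1.66, 1.69 and 1.32 in the WT mice, against 0.94, 0.85 and 0.47 in KO 1, 2 and 7. All KO values lay below all WT values. The difference of -0.80 ± 0.18 (SE, 95% interval -1.24 to -0.36) did not pass (adjusted p = 0.075), with the WT level 1.74-fold that of KO. Within slide 1 it was -0.61.

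Egf, the ligand that gives the family its name, read -3.16, -2.40 and -2.71 in the WT mice, against -2.96, -3.36 and -4.21 in KO. KO 1 lay among the WT values and KO 2 and KO 7 below them. The difference was -0.75 ± 0.35 (SE, 95% interval -1.59 to 0.091, adjusted p = 0.22). Within slide 1 it was -0.20.

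Transforming growth factor alpha (Tgfa), whose loss gives mice wavy hair, read -4.06, -4.27 and -4.19 in the WT mice, against -4.17, -4.38 and -4.61 in KO. The groups overlapped, and the difference was -0.21 ± 0.16 (SE, 95% interval -0.59 to 0.16, adjusted p = 0.39). The interval leaves out changes of the size measured for Areg, Epgn and Btc.

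**Figure D2:**
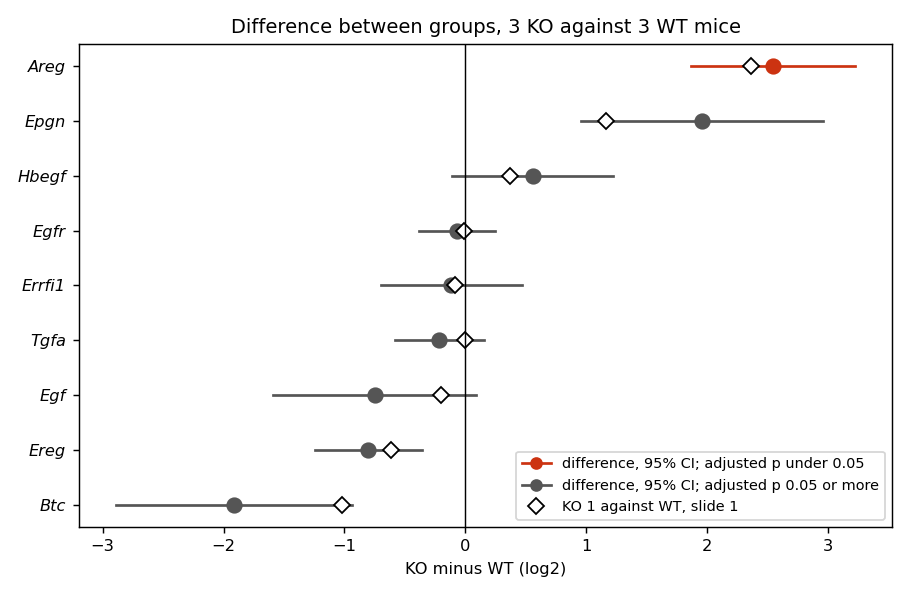
KO minus WT difference of each gene on the log2 scale (3 KO against 3 WT mice), with the 95% interval as a line and the difference of KO 1 from the WT mean, the comparison within slide 1, as an open diamond. Areg, in red, was the gene with an adjusted p under 0.05, and the diamonds of Areg, Epgn, Ereg and Btc lie on the same side of 0 as the full differences and nearer to 0.

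The receptor itself was read by 3 probes. The scanner files assign one to the full-length Egfr transcript and the other two to a shorter RefSeq transcript of the gene, which codes for a receptor without its kinase. The full-length probe, at chr11:16813815-16813874 (mm9, plus strand) and printed at 10 spots per array, read 2.50, 2.32 and 2.25 in the WT mice, against 2.35, 2.32 and 2.20 in KO. KO values lay among the WT values or just below them, and the difference was -0.068 ± 0.13 (SE, 95% interval -0.38 to 0.24, adjusted p = 0.75).

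The probe at chr11:16787172-16787231 read -2.46, -2.39 and -2.39 in the WT mice, against -2.48, -2.34 and -2.45 in KO, a difference of -0.011 ± 0.12 (SE). The probe at chr11:16783556-16783615 read -1.91, -1.71 and -1.73 in the WT mice, against -1.81, -1.59 and -1.52 in KO, a difference of 0.14 ± 0.14 (SE). The 3 intervals together ran from -0.39 to 0.48, so no probe showed a difference near that of Areg. The sign was not the same for all 3 probes. Whether any of these probes reads only the transcript it is assigned to is not given. The last of these probes is shown because it read the opposite sign from the probe used in the fit.

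Egfr probe at chr11:16783556-16783615: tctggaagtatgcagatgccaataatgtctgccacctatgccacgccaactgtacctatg

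Errfi1, the feedback inhibitor, read 3.09, 3.32 and 3.09 in the WT mice, against 3.08, 2.58 and 3.50 in KO 1, 2 and 7. KO 7 was the highest and KO 2 the lowest of all 6 mice. The difference was -0.12 ± 0.24 (SE, 95% interval -0.69 to 0.46, adjusted p = 0.77), and it was 0.12 without KO 2.

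Areg, Ereg, Epgn and Btc are neighbours in the mouse genome. Their probes span 322.889 kb of chromosome 5 (mm9), with Epgn at chr5:91464119-91464178, Ereg at chr5:91522553-91522612 and Btc at chr5:91786948-91787007. Within this stretch the KO mean was above the WT mean for Epgn and Areg and below it for Ereg, which lies between them, and for Btc, and of the 4 Areg passed.

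Ratios between the probes of one array do not depend on a factor by which the whole array is scaled. They can still change with another background or with quantile normalization. The log2 ratio of Ereg to Areg was 6.05, 5.92 and 5.21 in the WT mice, against 2.75, 2.89 and 1.50 in KO, a change of -3.35. The ratio of Areg to Btc was -2.95, -2.69 and -2.27 in the WT mice, against 0.74, 1.46 and 3.26 in KO, a change of 4.46. The smallest change was for Epgn to Areg, which read 0.71, 0.43 and 0.76 in the WT mice, against -0.57, 0.39 and 0.31 in KO, a change of -0.59. None of the 6 ratios among the 4 genes overlapped between the groups. Each had an exact two-sided permutation p of 0.1, before and after Benjamini-Hochberg adjustment over the 6, which is the smallest that 3 mice against 3 allow. For ratios of Areg or Epgn to Ereg or Btc, in either order, this separation was fixed beforehand by the values of the single genes. Those ratios therefore add no support to the single-gene results. Within slide 1 the 6 ratios kept their signs, from -2.98 for Ereg to Areg to 3.38 for Areg to Btc.

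Within 1 Mb of the 4 ligand probes lay 37 other genes of the fit, of which 2 were called higher in KO and 0 lower, beside 1.98% and 0.389% of all genes. These were Afm, which codes for the plasma protein afamin (adjusted p = 0.017 in limma), and the predicted gene Gm9958 (adjusted p = 0.026). Both were well above background on all 3 KO arrays and on 1 of the 3 WT arrays, so they met the filter through the KO group and no size is given for them. The median difference of the 37 genes was 0.16 and the median size, sign left out, 0.41, beside 0.054 and 0.29 over all genes. In 18 of the 37 the groups did not overlap, beside 35.4% of all genes. Afm and Gm9958 are included in these medians and in the 18, which therefore rest in part on background readings.

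The window also holds 8 genes of CXC chemokines, a group looked at after the values were seen. Of these, 0 passed. Every KO value lay above every WT value in 6 (Cxcl1, Cxcl2, Cxcl3, Cxcl5, Cxcl9 and Cxcl10), and 2 overlapped (Ppbp and Pf4). Over all genes, every KO value lay above every WT value in 5062 of 23676. The neutrophil attractant Cxcl1 read -3.98, -4.69 and -4.87 in the WT mice, against -2.47, -2.31 and -0.61 in KO (2.72 ± 0.52 SE, adjusted p = 0.053). Cxcl5, another, differed by 3.76 ± 0.92 (SE, adjusted p = 0.084). Cxcl2 was well above background on 2 of the 3 WT arrays, and Cxcl3 on 0 of 3. Cxcl3 thus met the filter through the KO group and its WT values are background readings. No size is given for it, and its place among the 6 is no result. Ppbp and Pf4, the platelet chemokines, differed by 0.62 ± 0.62 and -0.22 ± 0.33 (SE, adjusted p = 0.53 and 0.69).

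**Figure D3:**
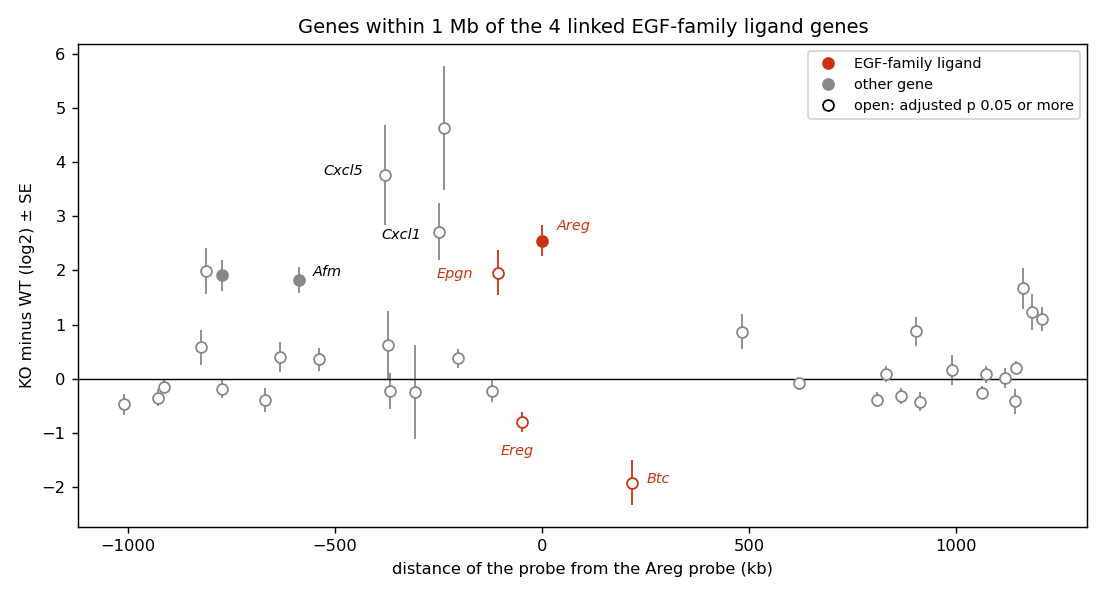
KO minus WT difference (log2, bars are SE) of the 4 linked ligand genes (red) and of 35 of the 37 other genes within 1 Mb (grey), by distance of the probe from the Areg probe in kb. Genes not well above background on any array of 1 group are left out, and filled points had an adjusted p under 0.05. The filled grey points are Afm and Gm9958, well above background on 1 of 3 WT arrays, so their plotted sizes are no result. Ereg lies between Epgn and Areg and on the other side of 0.

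The 5 named genes whose values were most like those of Areg over the 6 arrays were Lcn2, Podnl1, Adm2, Lrrc15 and 6330407A03Rik, out of 18316 named genes. Likeness was the root mean square difference between the genes' log2 values after each gene's WT mean was subtracted, and it was 0.22 for Lcn2 and 0.32 for 6330407A03Rik. Lcn2, which codes for the iron-sequestering protein lipocalin 2, stood 2.32, 2.52 and 3.33 above its WT mean in KO 1, 2 and 7. Lrrc15, which codes for a membrane protein with leucine-rich repeats, differed by 2.87 ± 0.17 (SE, adjusted p = 0.0019). Epgn ranked 45 in this order and Hbegf 1838, while Btc ranked 18266, near the far end. These ranks are a description of 6 arrays and carry no test. The 5 genes were picked for closeness to Areg on these same arrays, so a gap between the groups was fixed by the choice.

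Genes that work with the receptor were taken in 5 lists by role. Other ways of scaling the arrays moved the median difference of all genes from 0.054 to between -0.083 and 0.11, so a list median of that size carries no direction. The other ErbB receptors and the neuregulins, the ligands of ErbB3 and ErbB4, had 6 of 7 genes measured, since Nrg3 was well above background on none of the arrays. Of these, 1 rose, 0 fell and 5 did not pass, beside 1.98% and 0.389% of all genes that rose and fell. The median difference was 0.14. Neuregulin 1 (Nrg1) read -3.06, -3.58 and -2.85 in the WT mice, against -1.62, -1.73 and -1.19 in KO 1, 2 and 7. The groups did not overlap, and the difference was 1.65 ± 0.24 (SE, adjusted p = 0.024 in limma). Leaving out WT 1, WT 2, WT 3 or KO 2 ended the call, with adjusted p-values of 0.063, 0.071, 0.052 and 0.064. Within slide 1 it was 1.54, and with slide as a fixed block the adjusted p was 0.28. Erbb4, the receptor shared by neuregulins, betacellulin and epiregulin, differed by -0.67 ± 0.27 (SE, adjusted p = 0.18).

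The 8 genes of ligand release are the shedding proteases of the ADAM family, the iRhoms that bring ADAM17 to the cell surface, and the inhibitor Timp3. Of these, 0 rose and 0 fell, and their differences ran from -0.39 to 0.34 with a median of 0.016. The smallest p-values were those of Timp3 (-0.39 ± 0.16 SE, adjusted p = 0.18) and Adam9 (-0.39 ± 0.18 SE, adjusted p = 0.21).

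The 20 adaptors and kinases that carry the signal inside the cell had 0 that rose and 0 that fell, with a median difference of -0.11 and a range of -0.70 to 0.81. Stat3, a transcription factor that the receptor activates, had the smallest p (0.81 ± 0.21 SE, adjusted p = 0.092). A second kept probe of Stat3 gave a difference of 0.21.

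The 13 inhibitors of the receptor or its pathway also had 0 that rose and 0 that fell, with a median of -0.051 and a range of -0.58 to 0.58. The ubiquitin ligase Cblc differed by 0.58 ± 0.13 (SE, adjusted p = 0.075) and Spry1, a Sprouty protein that holds back ERK signalling, by -0.58 ± 0.14 (SE, adjusted p = 0.082). A second probe of Cblc gave 0.13.

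The 14 transcripts that ERK signalling is known to induce had 0 that rose and 0 that fell. Their differences had a median of 0.23 and ran from -0.41 to 1.57. Dusp4 and Dusp6, phosphatases that switch ERK off again, had the smallest p-values, at -0.41 ± 0.18 and 0.41 ± 0.19 (SE, adjusted p = 0.21 and 0.22). The summed linear signal of the list, in multiples of the array's 75th percentile, was 15.4, 18.2 and 18.1 in the WT mice, against 18.4, 18.5 and 28.8 in KO, so KO 7 stood apart from the other 5 mice.

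**Figure D4:**
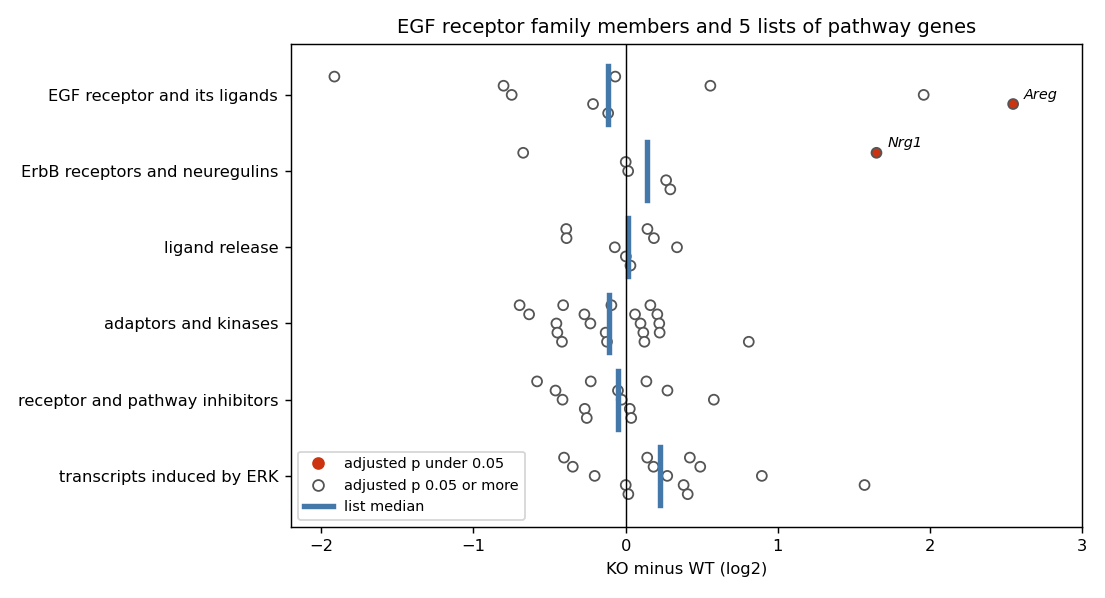
KO minus WT difference (log2, one point per gene, 3 mice per group) of the 9 genes and of 5 lists of pathway genes, with a blue bar at each list's median; the vertical spread of the points has no meaning. The filled points are Areg and Nrg1, the genes with an adjusted p under 0.05.

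Whole skin holds many cell types, and fewer cells of a type and less RNA per cell cannot be told apart in these arrays. Marker lists were therefore summed on the linear scale, in multiples of each array's 75th percentile. Markers of hair matrix and inner root sheath summed to 5.48 to 10.9 in WT and 67.1 to 120 in KO, and 9 of 9 rose, beside 1.98% of all genes. Wound keratinocyte markers, the keratins and small proline-rich proteins of activated epidermis, summed to 36.0 to 60.4 and 162 to 304, and 3 of 6 rose. With slide as a fixed block 7 of the 9 hair markers and 0 of the 6 wound markers passed, beside 0.71% of all genes. Both lists lay higher on every KO array than on any WT array, and so did the sums for basal and suprabasal keratinocytes, fibroblasts and neutrophils. All sums depend on the 75th percentile, which was lower in KO. Before that scaling Krt5, the brightest basal probe, read 490414 to 521268 intensity units in WT and 489496 to 560874 in KO. Within KO the hair matrix sum was 120, 108 and 67.1 in KO 1, 2 and 7, lowest in KO 7, where Areg and Epgn were highest. The part of these lists in the results of the 9 genes was not tested.

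Cell types known to make ligands or to express the receptor were set beside these. Basal keratinocyte markers summed to 289 to 343 in WT and 370 to 403 in KO, suprabasal keratinocyte markers to 368 to 442 and 474 to 609, and fibroblast markers to 257 to 299 and 324 to 457, with 0 genes that passed in the 3 lists. Their median differences were 0.15, 0.39 and 0.42, and the KO mean was lower in 3 of 9, 1 of 8 and 2 of 7 genes. A second kept probe of the basal marker Krt5 gave a difference of -0.84. Of 10 markers of T cells and innate lymphoid cells, which can make amphiregulin, 1 rose, beside 1.98% of all genes. Every KO value lay above every WT value in 6 of the 10, beside 5062 of all 23676 genes. The gene that rose was Icos, a costimulatory receptor (2.58 ± 0.36 SE, adjusted p = 0.020 in limma). Foxp3, the factor that defines regulatory T cells, differed by 1.31 ± 0.31 (SE, adjusted p = 0.078), and the median of the list was 0.54. Its sum, 28.0 to 30.5 in WT and 29.2 to 32.6 in KO, was 69.8% to 83.5% Gata3, and the other 9 genes summed to 4.62 to 5.36 and 5.44 to 9.23. Their part in the Areg result was not tested.

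Of 8 mast cell and basophil markers 0 passed, the median difference was 0.50 and the sums were 22.4 to 28.7 in WT and 24.4 to 61.4 in KO. Within slide 1 the list median was -0.061. Mcpt4 made up 62.5% to 70.8% of the sums. Mcpt8 was well above background on 2 arrays. Of 9 neutrophil markers 1 rose, beside 1.98% of all genes, and the median was 0.73. Wholly above WT lay 5, and 1, Ly6g, lay wholly below (-0.35 ± 0.15 SE), beside 5062 and 3326 of all 23676 genes. The sums were 8.86 to 9.45 in WT and 12.3 to 22.6 in KO. Of these sums 82.2% to 88.2% was Csf3r, which did not pass (adjusted p = 0.12 in limma). The other 8 genes summed to 1.12 to 1.28 in WT and 1.59 to 4.02 in KO. Ngp was well above background on 1 array. The 6 sebaceous gland markers did not share a direction. Elovl3, a fatty acid elongase, rose (1.56 ± 0.17 SE, adjusted p = 0.0085 in limma), while Awat2, a wax synthase, differed by -1.49 ± 0.32 (SE, adjusted p = 0.066). Of the 6, 3 lay wholly below WT and 1 wholly above, beside 3326 and 5062 of all 23676 genes.

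Markers of fat, muscle and cartilage had negative medians, with 0 genes that passed in each list. The median difference was -0.99 for 6 adipocyte markers, -0.65 for 7 skeletal muscle markers and -0.61 for 5 cartilage markers, and -0.42, -0.27 and -0.48 within slide 1. Matn1, another cartilage gene, was well above background on 1 array.

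KO 7 had the highest Areg, Epgn and Hbegf and the lowest Btc, Ereg, Egf and Tgfa of the 6 mice. It also had the highest sums of wound keratinocyte, basal keratinocyte, neutrophil, mast cell, fibroblast, macrophage and endothelium markers. Its sums of skeletal muscle and cartilage markers were the lowest, so its extremes were not limited to 1 kind of cell. Without KO 7 the Areg difference passed at 2.25, the lowest of the 6 values with 1 mouse left out. Epgn was then 1.53 and Btc -1.49, and neither passed.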

How the data were processed

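Total RNA was extracted with Qiagen RNeasy kits per the labels' protocols. The Cy3 labelling method is not stated in the labels. The deposited scanner files hold an intensity per spot, the processed signal of Agilent Feature Extraction 10.7.3.1, which per the file headers had its background subtracted but was not scaled from array to array. The series matrix gave identical intensities and served as an alternative.

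Outlier spots (170 to 249 per array) were left out and spots of a probe averaged. This removed 40 of the 39429 non-control probes. Log2 values of the deposited intensity minus the array's 75th percentile were used. The filter asked for a clear signal over background on 3 or more of the 6 arrays, which 29602 probes met, and the brightest of these on average stood for its gene. Names came from a RefSeq table (GRCm38.p6) for 30180 probes. KO and WT were compared with limma 3.58.1 (lmFit, eBayes) in R 4.3.3, two-sided, with Benjamini-Hochberg adjustment over 23676 genes. The script was tested on simulated data. No spot was saturated, and 3 mice per group limit the precision.

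All 9 members were named, with, from each pathway list, up to 4 genes past the threshold, or, with fewer than 2 such genes, the 2 of lowest p, the 5 genes most like a member that passed, and neighbours that passed. One gene that this rule names is not reported here. The members, the 5 pathway lists (62 genes) and the 15 marker lists (115 genes) were chosen with earlier results of these data known. In the remaining marker lists, of macrophages and monocytes, Langerhans and dendritic cells, and endothelium, 0 genes passed and the median differences were -0.26, 0.24 and 0.061.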

Additional observations from a re-analysis of the deposited data

How the results depend on the processing

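Each of the 9 genes was refitted with other backgrounds, scalings, filters, probe rules, blocks and variance models, and with each mouse left out. The count of members that rose, 1, became 2 with normexp background (offset 50), 2 with an intensity trend, 2 at an adjusted p under 0.10, 0 with the replicate block and 0 with slide as a fixed block. The count that fell, 0, became 1 with normexp background, 2 with an intensity trend and 2 at an adjusted p under 0.10. With 1 mouse left out these counts ran from 1 to 2 and from 0 to 1. Over all genes, 469 rose and 92 fell. These became 860 higher with normexp background, 269 and 27 with no filter, 158 and 10 with slide as a fixed block, 1570 and 471 at an adjusted p under 0.10, and 149 lower with the array median. Leaving out 1 mouse gave 183 (WT 2) to 719 (KO 1) higher and 19 (WT 2 and WT 3) to 254 (KO 1) lower.

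The labels share the numbers 1 and 2 between the groups and name no pairing, and same-numbered mice had correlations of deviations of 0.083 and 0.054. With the replicate block 0 genes rose and 0 fell in limma, which leaves 1 residual degree of freedom, while 4517 genes and 4 of the 9 members had an unadjusted p under 0.05, against 6302 and 4 without it. The Areg difference was then 2.39 (adjusted p = 0.10).

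Areg passed in 17 of 19 alternatives, at 2.25 to 2.75. Epgn and Btc each passed in 3 of 19 (normexp background, intensity trend and without KO 1) and Ereg in 1 of 19 (intensity trend). Signs changed in some alternatives for Egfr and Errfi1 only. Egfr was 0.14 by another probe, 0.021 by the mean of its probes and -0.12 to 0.0054 with 1 mouse left out. Errfi1 was -0.34 to 0.12 with 1 mouse left out. The cause of these changes was not tested. A kept sign is not always a direction, since Tgfa was -0.0018 and Egf -0.20 with slide as a fixed block. Hbegf was 0.14 with the replicate block. Nrg1 also missed the threshold with no filter (adjusted p = 0.055). KO 2 and KO 7 share no slide with WT, so slide and group cannot be told apart for them.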
